A study of Homo sapiens with 47 samples.

Results

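The genes described are the tubulin isotypes of the human cell line HEK293 and stathmin: TUBA1A, TUBA1B, TUBA1C, TUBB, TUBB2A, TUBB2B, TUBB4B, TUBG1 and STMN1. They were chosen by gene name, and all 9 had a row among the 18651 gene rows of the table. The table holds unique molecular identifier (UMI) counts of 47 single cells, and a UMI is a random tag that marks 1 captured mRNA molecule. HEK293 is an established line of human embryonic kidney cells transformed with adenovirus DNA. The cells were cultured in DMEM with glutamine and fetal calf serum, lysed one by one in a Fluidigm C1 circuit together with synthetic spike-in RNAs, and carry no treatment, so there is 1 group and no comparison between conditions. Cells are named by the number in their labels.

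Tubulin is a dimer of an alpha and a beta chain that polymerises into microtubules, and each chain is encoded by several genes, called isotypes. Microtubules form the interphase cytoskeleton and, in mitosis, the spindle. Gamma-tubulin starts new microtubules at the centrosome, and stathmin binds free dimers and promotes microtubule shrinkage. G2/M genes are those whose mRNA is highest in the second gap phase and mitosis.

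A cell had 29325 (cell 23) to 138647 (cell 43) endogenous UMIs (median 59689) and 2573 to 4717 spike-in UMIs. The label was checked on a few genes. UCHL1, a neuronal lineage gene that HEK293 cells are known to express, had UMIs in 47 cells, NEFM in 42, KRT18 in 41 and KRT8 in 38. LHX1 and PAX2, transcription factors of the embryonic kidney, had 33 and 8 UMIs in all, and the fibroblast gene COL1A1 had 12 in 4 cells. Of 22 markers, 10 had no row and were not analysed here. Cells of 1 run are not replicates of a condition, so no p-value is given, an SD is the spread over cells, and a correlation over cells is a description of these 47 libraries. The 5' end of each captured molecule is counted once, so UMI counts of different genes were compared without a correction for transcript length. UMIs per cell are not scaled for the total of a cell, so their SDs, lowest and highest values include differences in that total. Summed alpha- and beta-tubulin UMIs had a Spearman's rho of 0.910 and 0.886 with the endogenous total.

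The 7 alpha- and beta-tubulin genes held 10485 UMIs, 0.359% of all 2919198 endogenous UMIs (95% exact binomial interval 0.352% to 0.366%, counting error only). Their summed share ranged 2.46-fold around a median of 0.353%, being lowest in cell 23 (0.208%) and highest in cell 39 (0.512%). Alpha-tubulin took 0.235% (0.230% to 0.241%) and beta-tubulin 0.124% (0.120% to 0.128%). The ratio of alpha to beta UMIs was 1.90 over the summed counts and had a median of 1.94 over cells. It was highest, 4.08, in cell 23, where it rests on 49 alpha and 12 beta UMIs, and lowest, 0.857, in cell 87. Cell 87 was the 1 cell with more beta- than alpha-tubulin UMIs.

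TUBA1B, the main alpha-tubulin isotype of many cultured cells, was the most abundant member and ranked 92 among all genes. It had 113 ± 49.3 UMIs per cell (SD, n = 47), with a lowest value of 41 in cell 52, a median of 109 and a highest value of 249 in cell 39. TUBA1C had 27.2 ± 15.5 UMIs, with a lowest value of 6 in cell 23, a median of 24 and a highest value of 71 in cell 43. TUBA1A, the alpha isotype known from developing neurons, had 5.40 ± 4.08 UMIs, from 0 in 3 cells through a median of 4 to 15. A count of 0 allows a share of up to 0.00216% in the deepest cell and 0.0102% in the shallowest (3 counts of the total, counting error only). In all 47 cells the order was the same: TUBA1B had more UMIs than TUBA1C, and TUBA1C more than TUBA1A. Of the summed alpha-tubulin UMIs, TUBA1B held 77.7% (76.7% to 78.7%), TUBA1C 18.6% (17.7% to 19.6%) and TUBA1A 3.70% (3.26% to 4.17%).

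Among the beta isotypes, TUBB, the widely expressed class I isotype, led with 49.4 ± 26.3 UMIs per cell. Its lowest value was 4 in cell 23, its median 48 and its highest value 136 in cell 43. TUBB4B, another widely expressed isotype and a member of published G2/M gene lists, had 19.3 ± 11.2 UMIs, with values from 4 in cell 23 through a median of 15 to 63 in cell 39. Cell 39 thus held the highest counts of both TUBA1B and TUBB4B. TUBB2B, known from developing neurons, had 6.21 ± 5.18 UMIs, from 0 in 2 cells through a median of 5 to 19. TUBB2A, its close neighbour in sequence and on chromosome 6, had 2.09 ± 1.86, from 0 in 10 cells through a median of 2 to 7. Of the summed beta-tubulin UMIs, TUBB held 64.2% (62.6% to 65.7%), TUBB4B 25.1% (23.7% to 26.5%), TUBB2B 8.07% (7.20% to 9.01%) and TUBB2A 2.71% (2.20% to 3.29%). TUBB was the most abundant beta isotype, or level with it, in 46 cells. TUBB4B had at least as many UMIs as TUBB in 2 cells, and TUBB2B had more than TUBB2A in 36 cells, as many in 7 and fewer in 4. TUBA1A, TUBA1B and TUBA1C have nearly identical coding sequences, as have TUBB2A and TUBB2B, and how the authors counted reads common to such genes is not given in the sources used here. The split between them is uncertain for that reason.

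STMN1, which encodes stathmin, had 35.3 ± 16.2 UMIs per cell, with a lowest value of 6 in cell 10, a median of 35 and a highest value of 77 in cell 62. TUBG1, the main gamma-tubulin gene, had 8.21 ± 4.53, from 1 in 2 cells through a median of 8 to 20 in cell 39. Both were detected in every cell. By summed UMIs the members run TUBA1B, TUBB, STMN1, TUBA1C, TUBB4B, TUBG1, TUBB2B, TUBA1A, TUBB2A. TUBA1B exceeded TUBB in 47 cells, TUBB4B exceeded TUBG1 in 44, TUBB exceeded STMN1 in 38, TUBA1A exceeded TUBB2A in 36 and TUBA1C exceeded TUBB4B in 35. The other neighbours changed places more often. STMN1 exceeded TUBA1C in 32 cells and was below it in 14, TUBG1 exceeded TUBB2B in 28 and was below it in 15, and TUBB2B exceeded TUBA1A in 23 and was below it in 20. Of the 8 neighbouring pairs, TUBA1B and TUBB alone had means that differed by more than the SD of both genes over cells.

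**Figure D1:**
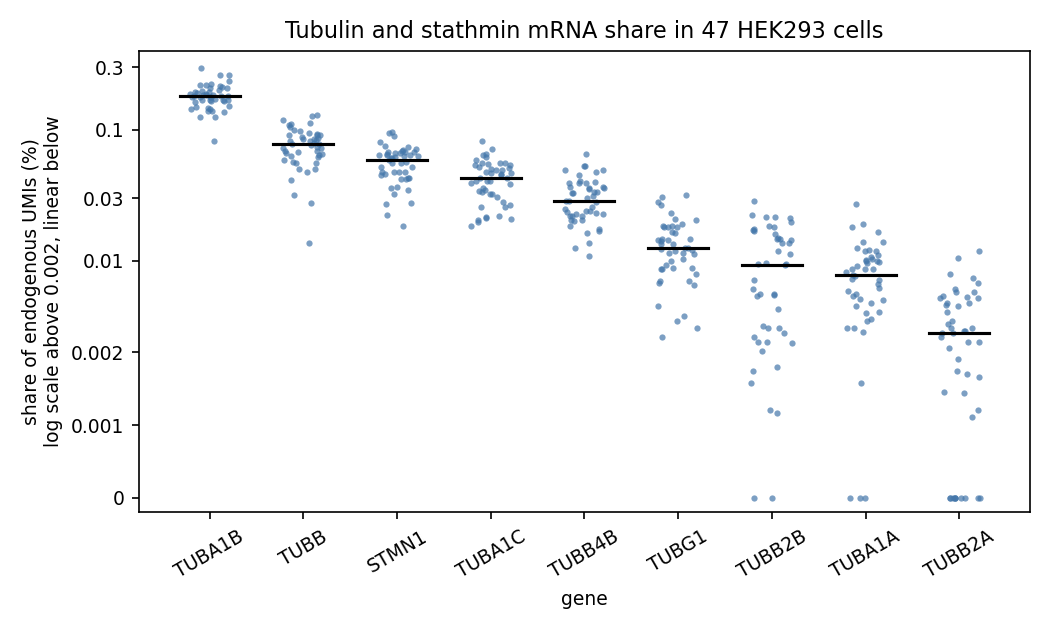
Each point is 1 of 47 cells, the vertical axis is the share of endogenous UMIs in percent (log scale above 0.002%, linear below) and the bar is the median. TUBA1B stands highest with a median of 0.180%, and TUBB2A lowest with a median of 0.00279% and 10 cells at 0.

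Dividing by spike-in recovery gave estimated molecules per cell, taking endogenous mRNA to be captured as well as the spike-ins, of which 20000 were added. TUBA1B had a median of 633 molecules (225 to 1136), TUBB 271 (30.1 to 584), STMN1 201 (40.4 to 379), TUBA1C 140 (38.5 to 363), TUBB4B 90.5 (30.1 to 287) and TUBG1 43.4 (5.50 to 118). TUBB2B, TUBA1A and TUBB2A had medians of 30.1, 28.3 and 10.9.

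The other tubulin rows were sparse. Of 14 other tubulin genes listed, 6 had a row, with 288 UMIs in all. The rest, among them the beta isotype TUBB3, had no row, so their level is not known from these data. The isotype percentages above leave such genes out. TUBB6, a beta isotype, had 98 UMIs and TUBE1, the epsilon-tubulin of centrioles, 54. TUBD1, the delta-tubulin, had 52, TUBG2, the other gamma-tubulin, 35, TUBB4A, a brain isotype, 26 and TUBA4A 23. Of 3 other stathmins, STMN3 had a row, with 37 UMIs in 19 cells. Adding all other alpha and beta rows, pseudogenes included, would add 27 alpha and 146 beta UMIs to the totals above.

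The counted isotype shares differed between cells. TUBA1B took from 60.5% of alpha UMIs in cell 55 to 90.0% in cell 32, and TUBA1C from 7.74% in cell 56 to 34.6% in cell 55. TUBB took from 33.3% of beta UMIs in cell 23, which had 12 beta UMIs, to 87.9% in cell 3. TUBB4B took from 10.3% in cell 3 to 11 of 22 UMIs in cell 31. The extremes of the beta isotypes therefore rest partly on small totals. The spread of these shares within their class was measured by an index of dispersion, the chi-square statistic divided by its degrees of freedom, which is 1 under counting error alone. It was 2.58 for TUBA1B, 2.57 for TUBA1C, 3.93 for TUBB, 2.86 for TUBB4B and 2.87 for TUBB2B, against 1.79 for TUBA1A and 1.26 for TUBB2A. An index for spike-ins, described below, had a median of 2.11 and a highest value of 3.97. The isotype index allows for an isotype being part of its class total. No such allowance was made for spike-ins, which lowers the values of abundant ones, so 3.97 is not a like limit. All the isotype values lay below 3.97. The 10 spike-ins with a mean of 20 to 200 UMIs had 1.48 to 2.59, a range that holds TUBA1B and TUBA1C. The part of technical spread in these shares was not tested.

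**Figure D2:**
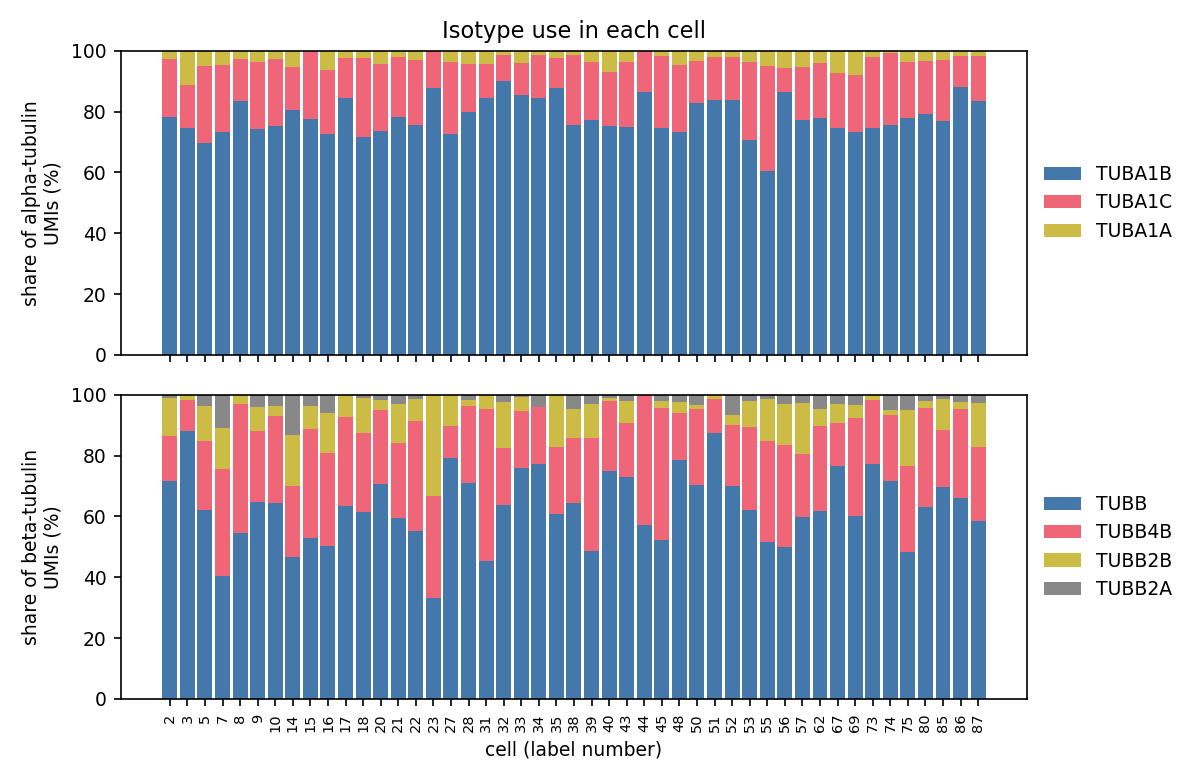
Each bar is 1 cell, in the order of label numbers, divided into the share in percent of its alpha-tubulin UMIs (top) or beta-tubulin UMIs (bottom) held by each isotype. TUBA1B is the largest part of alpha-tubulin in every cell, while the part of TUBB in beta-tubulin ranges from 33.3% to 87.9%.

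An index of dispersion was also computed for each gene against the endogenous UMI totals of the cells. It has no allowance for a gene being part of that total. Spike-ins, measured against their own totals, gave a median of 2.11 and a highest value of 3.97 over the 52 with at least 20 UMIs. The spike-in with this highest value was sparse, with a mean of 2.45 UMIs per cell, and the most abundant, with a mean of 801, had 3.76. The latter held 37641 of the 166728 spike-in UMIs, and an allowance for its part of that total would raise its value. No limit with such an allowance was computed, so the counts that follow hold for 3.97 only. Of the 9 members, 2 lay above 3.97, TUBA1B with 4.58 and TUBB with 4.01, against 3.21% of all 9088 genes with at least 20 UMIs. The share rises with abundance, to 9.34% of the 1830 genes with a mean of at least 5 UMIs and 19.3% of the 404 with a mean of 20 to 200, the range that holds both members. TUBB was just above this limit. TUBB2B (3.30), TUBA1C (3.14), TUBB4B (3.01) and STMN1 (2.90) lay between it and the median of all genes, 2.00. TUBG1 (1.88), TUBA1A (1.85) and TUBB2A (1.24) lay below that median. The 10 spike-ins with a mean of 20 to 200 UMIs, a range chosen after the values were seen, had indices of 1.48 to 2.59. TUBA1B, TUBB, STMN1 and TUBA1C, the 4 members in this range, were above 2.59, as were 69.1% of all genes in it, so this does not set them apart. Genes with a mean of at least 5 UMIs had a median index of 2.46. Without its highest cell TUBB had an index of 3.80 and TUBA1B 4.04, so TUBB was no longer above 3.97. That limit was kept from spike-ins with no cell left out, so it is not a like limit for these values. After thinning every cell to 29325 UMIs neither gene was above the highest spike-in value, then 3.25, with 2.63 for TUBA1B and 2.74 for TUBB.

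**Figure D3:**
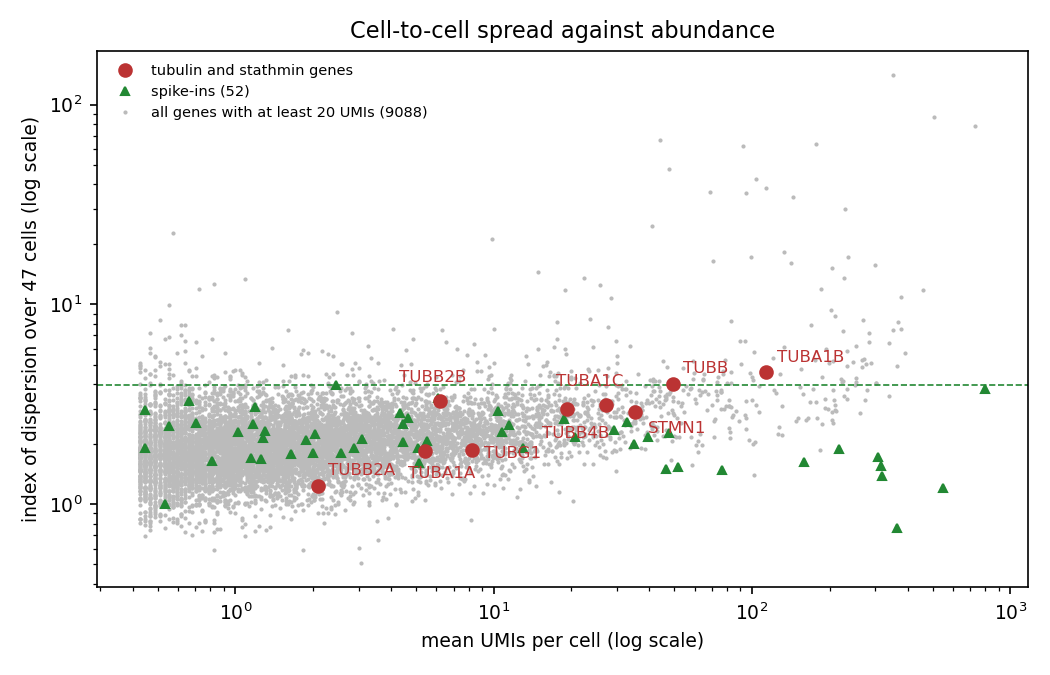
The index of dispersion over 47 cells is plotted against mean UMIs per cell, both on log scales, for the tubulin and stathmin genes, 52 spike-ins and all genes with at least 20 UMIs. The dashed line is the highest spike-in index, 3.97, which TUBA1B (4.58) and TUBB (4.01) exceed. It has no allowance for a spike-in being part of the spike-in total.

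Which isotypes follow the G2/M genes was described with a summed G2/M share, the percent of endogenous UMIs from 53 G2/M genes. TUBB4B, which belongs to that list, was left out of the sum. The share had a median of 0.478% and ran from 0.290% in cell 23 to 0.989% in cell 53. Spearman's rho was computed between it and each gene's UMIs scaled to the median total. Of the 9 members 4 reached a rho of 0.3, TUBA1C with 0.524, TUBB with 0.428, STMN1 with 0.366 and TUBA1A with 0.301 (n = 47 cells each), against 8.82% of the 9088 genes. The next below were TUBB2A with 0.268 and TUBB4B with 0.235. TUBA1B had 0.110, TUBB2B 0.0659 and TUBG1 -0.134. The median over the 9 was 0.268, beside 0.0797 over all genes and 0.343 over the 53 G2/M genes, each of which was left out of its own sum.

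TUBA1C had a value above that of 99.7% of all genes tested and within the range of the G2/M genes, 0.0354 to 0.593. Its 6 UMIs in cell 23 were 0.0205% of that cell's total, and its 47 UMIs in cell 53 were 0.0656%. The TUBA1C value lay between 0.493 and 0.563 when any 1 cell was left out. TUBB4B, the isotype that the G2/M list itself names, ranked above 82.7% of genes, and TUBA1B above 57.1%. Cells with more endogenous UMIs also had a higher G2/M share (rho 0.470), and TUBA1C, TUBB and TUBA1A had rho values of 0.354, 0.360 and 0.360 with that total. With the total held fixed in a partial correlation, TUBA1C had 0.433, STMN1 0.342, TUBB 0.315 and TUBA1A 0.159, against 4.40% of all genes at 0.3 or more. Over 20 draws in which every cell was thinned to 29325 UMIs, TUBA1C had a median rho of 0.450 (0.306 to 0.562), TUBB 0.378 (0.266 to 0.462), STMN1 0.309 (0.188 to 0.414) and TUBA1A 0.242 (0.101 to 0.397). TUBA1A was therefore at or above 0.3 only under some settings. In the 30 cells with label numbers up to 48, TUBA1C had 0.639, TUBB 0.598 and STMN1 0.409. In the 17 cells numbered above 48 they had 0.373, 0.113 and 0.255. TUBB and STMN1 therefore reached 0.3 in the first set of cells and not in the second, whereas TUBA1A had 0.283 in the first and 0.301 in the second. Over all genes 17.1% reached 0.3 in the first set and 13.8% in the second. The difference between the sets was not tested.

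**Figure D4:**
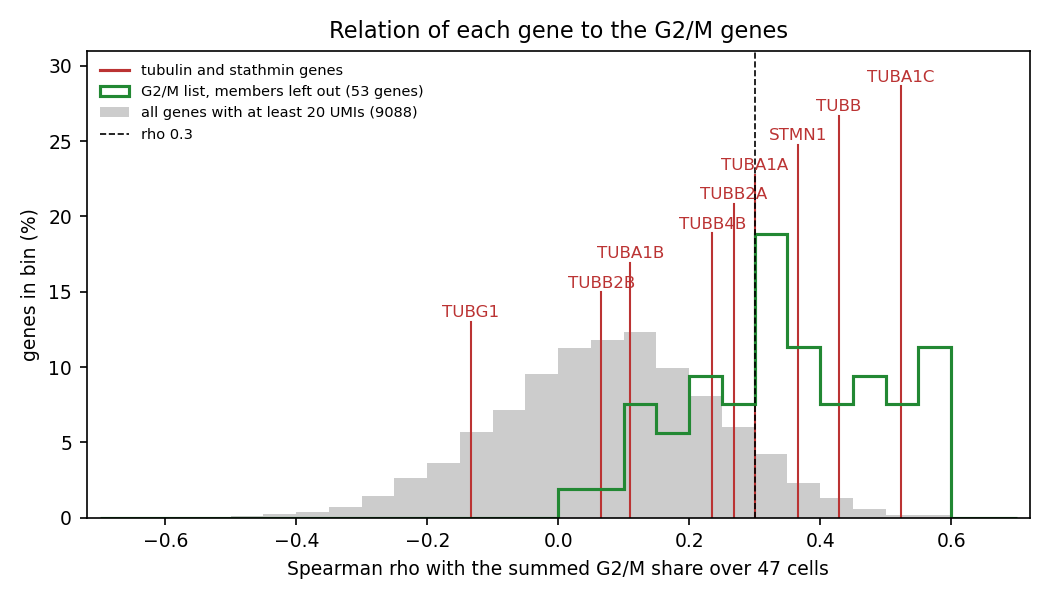
Red lines mark the Spearman rho of each tubulin or stathmin gene with the summed G2/M share over 47 cells, the green outline shows the 53 G2/M genes and the grey bars all 9088 genes with at least 20 UMIs, in percent of genes per bin. TUBA1C (0.524) and TUBB (0.428) lie to the right of 0.3, TUBB4B (0.235) and TUBA1B (0.110) to its left but within the range of the G2/M genes, and TUBG1 (-0.134) below that range.

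The share of an isotype within its class does not depend on how cells are scaled, whereas the G2/M share is taken of the endogenous total and rises with it (rho 0.470). TUBA1C's share of alpha-tubulin had a rho of 0.474 with the G2/M share, and TUBA1B's share had -0.554. These values mirror each other, since both genes are parts of 1 total. Cell 53 had 25.5% TUBA1C and 70.7% TUBA1B, and cell 23 had 12.2% TUBA1C and 87.8% TUBA1B. The value for TUBA1C stayed between 0.440 and 0.509 when any 1 cell was left out, and was 0.504 in cells numbered up to 48 and 0.305 in those above. Over the 20 thinning draws the medians were 0.398 for TUBA1C's share and -0.429 for TUBA1B's share. With the alpha-tubulin UMIs of a cell, TUBA1C's share had a rho of 0.264 and TUBA1B's share -0.350. For these shares no partial correlation given the endogenous total was run, and the G2/M share was not scaled in other ways. Among beta isotypes TUBB's share had a rho of 0.151 and TUBB4B's share -0.0896. The summed beta-tubulin share of endogenous UMIs had a rho of 0.459 with the G2/M share and the summed alpha-tubulin share 0.307. With the endogenous total, these summed shares had rho values of 0.397 and 0.266, and no partial correlation was run for them.

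**Figure D5:**
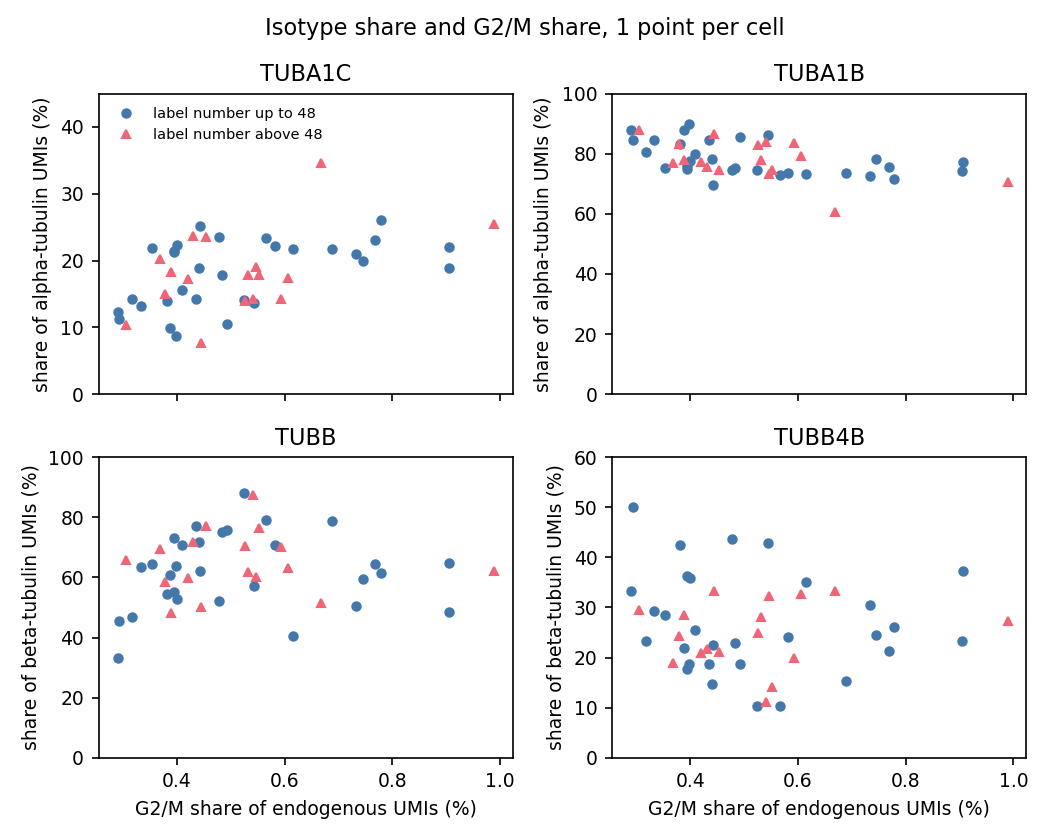
Each point is 1 cell, with its G2/M share of endogenous UMIs in percent on the horizontal axis and the share in percent of an isotype in its class on the vertical axis, marked by label number. TUBA1C's share is higher towards the right (rho 0.474) and TUBA1B's lower (rho -0.554), while TUBB (0.151) and TUBB4B (-0.0896) show little trend.

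With single G2/M genes the members differed. UBE2C, which works with the anaphase-promoting complex, had rho values of 0.448 with TUBA1C, 0.433 with TUBB, 0.334 with STMN1 and 0.298 with TUBB4B. CKS2, a CDK-binding subunit, had 0.428 with TUBB4B, 0.308 with TUBA1C and 0.0601 with TUBB. HN1, a further abundant gene of the list, had 0.323 with TUBA1A and -0.0251 with TUBB4B. The share of all genes that reach such values with these 3 genes was not computed, and no alternative setting was run for these pairs.

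Earlier phases of the cycle gave another order. With the summed share of 42 G1/S genes, TUBB had a rho of 0.262 and STMN1 0.253, whereas TUBA1C had -0.320. With HIST1H4C, the histone H4 gene made in S phase, TUBG1 had 0.320, TUBB 0.201 and TUBA1C -0.0432. TUBB was the member with positive values for all 3 measures, and among the members TUBG1 had the highest value for the histone. For the G1/S share and the histone no share of all genes was computed and no alternative setting was run.

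The promoters of TUBA1C and TUBB, which had the highest rho values, are shown beside those of TUBA1B and TUBB4B, the most abundant alpha isotype and the isotype in the G2/M list. Each is the 250 bases before a gene start, 5′ to 3′ on the gene's strand, from RefSeq on GRCh38.p14. Where RefSeq lists several starts, the start nearest to that of a principal transcript in GENCODE release 29 was taken. The start used in HEK293 was not read from these data. Capitals mark CCAAT, the box bound by NF-Y, and TTTGAA, a form of the cell cycle homology region of many G2/M promoters, on either strand.
TUBA1C (chr12:49264832-49265081, plus strand): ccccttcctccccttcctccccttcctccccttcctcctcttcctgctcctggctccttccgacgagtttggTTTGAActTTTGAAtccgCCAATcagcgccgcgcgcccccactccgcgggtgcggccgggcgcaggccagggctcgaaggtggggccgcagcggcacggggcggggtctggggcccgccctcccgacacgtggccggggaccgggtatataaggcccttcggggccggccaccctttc
TUBB (chr6:30720102-30720351, plus strand): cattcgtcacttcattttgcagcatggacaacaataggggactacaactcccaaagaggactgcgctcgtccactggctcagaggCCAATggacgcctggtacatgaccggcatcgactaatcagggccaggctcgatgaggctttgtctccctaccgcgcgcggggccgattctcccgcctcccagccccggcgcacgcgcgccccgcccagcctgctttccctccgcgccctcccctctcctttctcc
TUBA1B (chr12:49131396-49131645, minus strand): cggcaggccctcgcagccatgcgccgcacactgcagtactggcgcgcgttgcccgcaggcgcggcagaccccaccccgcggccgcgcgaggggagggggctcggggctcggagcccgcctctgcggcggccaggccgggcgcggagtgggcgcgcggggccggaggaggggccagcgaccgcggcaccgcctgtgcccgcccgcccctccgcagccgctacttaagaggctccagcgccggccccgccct
TUBB4B (chr9:137241037-137241286, plus strand): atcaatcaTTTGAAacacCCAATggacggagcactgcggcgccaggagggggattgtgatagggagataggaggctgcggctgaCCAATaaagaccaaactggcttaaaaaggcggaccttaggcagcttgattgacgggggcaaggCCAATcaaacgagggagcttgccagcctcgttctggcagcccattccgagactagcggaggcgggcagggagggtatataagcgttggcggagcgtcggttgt
TUBA1C had a pair of TTTGAA matches, starting 178 and 170 bases before the gene start, and CCAAT at 160. TUBB had CCAAT at 165 and no TTTGAA. TUBA1B had neither. TUBB4B had TTTGAA at 242 and CCAAT at 232, 166 and 103. CCAAT was in the window of 7 of the 9 members and TTTGAA in 2, TUBA1C and TUBB4B. Over all 14 starts that RefSeq lists for the members, 9 windows held CCAAT and 3 TTTGAA. Of 35116 RefSeq promoter windows of the same length, 11240 held CCAAT, just under 1 in 3, and 4677 (13.3%) TTTGAA. Of the 55 windows of G2/M genes other than the members, 67.3% held CCAAT and 47.3% TTTGAA. A match says only that these letters are present.

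The members were loosely tied to each other. Over the 36 pairs the median rho was 0.171, and 5 pairs, 13.9%, reached 0.3, beside a median of 0.0144 and 3.07% over all pairs of genes with at least 100 UMIs. TUBA1C and TUBB had the highest value, 0.424. TUBA1A and STMN1 had 0.378, TUBB2A and TUBB2B 0.371, TUBB and STMN1 0.328, and TUBA1B and TUBB 0.320. TUBB and TUBG1 had the lowest, -0.236, and TUBB and TUBB4B, the abundant beta isotypes, had 0.0331. Reads shared between TUBB2A and TUBB2B could contribute to the value of that pair, and their part in it was not tested.

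The genes most like each member were taken from 3677 other genes with at least 100 UMIs, and so are the highest of many values, some from sparse genes. TUBB was most like KPNA2, an importin alpha of nuclear import, with a rho of 0.573, followed by NAP1L4, a histone chaperone, with 0.550 and PCNA, the clamp of DNA polymerase, with 0.550. KPNA2 itself had a rho of 0.575 with the G2/M share and PCNA 0.00358. TUBA1C was most like PPIAP22, listed as a pseudogene of PPIA, with 0.534, POP4, a subunit of RNase P, with 0.520 and CKAP5, a microtubule polymerase of the G2/M list, with 0.509. STMN1 was most like MORF4L2, ATP6V1E1 and VPS36, of chromatin, the vacuolar proton pump and endosomal sorting (0.530, 0.499 and 0.484). TUBA1B was most like C12orf65, a mitochondrial translation factor, MID1IP1, which binds the microtubule protein MID1, and RP11-592N21.1 (0.546, 0.503 and 0.491). TUBB4B was most like ITPK1, an inositol phosphate kinase, NCLN and ORMDL1 (0.520, 0.505 and 0.490). TUBA1A was most like GAPVD1, NUP93, a nuclear pore protein, and PDK2 (0.543, 0.540 and 0.539), TUBB2B like C7orf55, SC22CB-1E7.1 and the ubiquitin gene UBB (0.498, 0.479 and 0.475), and TUBG1 like IFI30, ECI2 and the keratin gene KRT8 (0.502, 0.476 and 0.465).

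Other genes that act on tubulin were described from lists apart from the G2/M list, which itself holds microtubule genes such as CKAP5 (rho 0.574 with the G2/M share). The counts at a rho of 0.3 or more that follow stand beside 8.82% of all genes, and those of 0 or 1 gene in a list of 6 to 9 are near that share. New tubulin chains pass from prefoldin to the CCT chaperonin and on to the tubulin cofactors. Of 6 prefoldin genes, led by PFDN5 and VBP1 (37.2 ± 20.1 and 15.0 ± 8.41 UMIs per cell), and of 8 CCT genes, led by CCT4 and CCT7 (41.2 ± 18.7 and 37.5 ± 15.3), 0 reached a rho of 0.3, and their medians were -0.0683 and -0.106. Of 6 tubulin cofactor genes with at least 20 UMIs, led by TBCA and TBCB (42.7 ± 18.8 and 13.2 ± 7.69), 1 did, TBCC with 0.351. Of 9 genes of the gamma-tubulin complex, led by MZT2B and MZT2A (20.4 ± 9.44 and 15.8 ± 7.35), 1 did, TUBGCP3 with 0.392. Of 17 microtubule-associated genes 3 did: MAPRE1, a protein that tracks growing microtubule ends, with 0.411, NUMA1, a spindle pole protein, with 0.364 and PRC1, which bundles microtubules of the central spindle, with 0.347. PRC1 and the dynein heavy chain gene DYNC1H1 were the most abundant of these, with 14.3 ± 10.7 and 12.3 ± 7.25 UMIs. Of 9 tubulin-modifying enzyme genes, led by TTLL12 and AGTPBP1 with 139 and 125 UMIs, 1 did, TTLL4, a glutamylase, with 0.344. Of the 6 other tubulin genes 0 did, TUBB6 being the nearest with 0.267.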

How the data were processed

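Single HEK293 cells were profiled by 5'-selective, oligo-dT-primed RNA sequencing with UMIs, per the labels' protocols. The authors' deposited values are raw UMI counts, whole numbers for every gene in every cell. Cutadapt 1.2.1, STAR 2.4.0a, hg19 and GRCh37 are named, per the submitters' processing notes. The annotation, UMI collapsing, use of strand, reads that map to several places, and filter on cells are not given in the sources used here. A repeated header line without a gene name, with 0.0602% of the summed values, was dropped. Each of the 47 columns matched 1 label. Spike-in rows were kept out of totals. No cell was removed and no doublet call was made.

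Members and lists were chosen with earlier results of these data known. All members were named. From each microtubule list, other tubulins and stathmins included, the 2 genes with most UMIs and any with a rho of at least 0.3 were named. From the G2/M list the 3 most abundant were named, and the G1/S list was used as a sum. For each member with a mean of at least 5 UMIs the 3 most similar genes were named. Alternatives used edgeR 4.0.16 (TMM), DESeq2 1.42.0 (size factors), spike-in scaling, thinning, other scores and subsets of cells. Python 3.11.15, numpy 2.4.6, scipy 1.17.1 and R 4.3.3 were used. Correlation and index scripts were tested on simulated data.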

Additional observations from a re-analysis of the deposited data

How the results depend on the processing

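The shares of TUBA1B, TUBA1C, TUBB, TUBB4B and TUBB2B in their class and the summed tubulin share moved by less than the SD over cells under each alternative (median over cells, thinning, all tubulin rows, without cell 52). No alternative was run for the shares of TUBA1A and TUBB2A. The count of members with a rho of at least 0.3, 4 as reported, was 9 with spike-in scaling, where 40.1% of all genes also reached it and both measures share each cell's spike-in total, 2 after a single thinning draw (5.71% of all genes) and 2 in the 17 cells numbered above 48 (13.8%). The cause of the last was not tested. Each gene's median rho over 20 thinning draws was also taken, a setting added after the data were seen like that without cell 43. Counted on these medians, 3 members reached 0.3 (2.99% of all genes). Medians vary less than the values of 1 draw, so 2.99% and 5.71% are not on a like basis. The other settings gave 3 to 6, with 4.40% to 18.3% of all genes. The median rho of all genes was 0.0797 as reported, 0.127 with TMM scaling, 0.153 with DESeq2 size factors and 0.253 with spike-in scaling. TUBA1C reached 0.3 in 15 of 15 settings (0.373 to 0.821), TUBB in 14 (0.113 above label number 48), STMN1 in 12, TUBA1A in 7, TUBB2A in 4, TUBB4B in 3, TUBA1B in 2, and TUBB2B and TUBG1 in 1 each. The count of members with an index above the highest spike-in value was 2 as reported (3.21% of all genes). It was 5 with spike-in scaling (8.95%), 0 after thinning (1.82%) and 1 without the highest cell of each gene (1.49%). In the last setting the limit stayed at 3.97, from spike-ins with no cell left out. The count of 1 and the 1.49% are therefore not on a like basis with the values as reported. No paired analysis was possible because the labels name 1 group. Counting error limits TUBA1A, TUBB2A and TUBB2B most, with 254, 98 and 292 UMIs over all cells, and an isotype share within a cell that rests on few beta-tubulin UMIs.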
